A study of Mus musculus with 14 samples.

Results

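The collagen genes were taken as every gene whose mouse symbol was Col, a number, the letter a and a number, so that each gene encodes 1 collagen chain. The rule found 44 of the 53801 genes measured in each tumor, and it used no measured value. They were grouped by the structure of the protein into 11 fibrillar chains, 6 basement membrane chains, 6 beaded filament chains, 9 fibril-associated chains with interrupted triple helices (FACIT), 3 short-chain network chains, 2 multiplexins, 4 transmembrane chains, 1 anchoring fibril chain and 2 others. RNA was sequenced from 14 whole tumors of CT26 cells, which derive from a colon carcinoma of a Balb/c mouse, carried DNA barcodes and were transplanted under the skin of both flanks of female Balb/c mice aged 6 to 8 weeks. From day 7 the mice were injected with control IgG or with an antibody against PD-1, an inhibitory receptor of T cells, every 3 days for 5 doses, and tumors were taken 3 days after the last dose. Control IgG had 5 tumors, taken from 4 mice, the anti-PD-1 responders also numbered 5 (4 mice), and there were 4 anti-PD-1 non-responders (3 mice). Responders and non-responders were told apart in the study by tumor size at the end of treatment relative to control IgG tumors, so that size differs between these groups by definition. All tumors came from 1 cell line, and tumor and host are both mouse, so that a collagen transcript cannot be assigned to cancer cells or host cells.

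Collagens are proteins in which 3 chains wind into a triple helix, and they form much of the extracellular matrix. Fibrillar chains assemble into the cross-banded fibrils that give connective tissue and tumor stroma tensile strength, and FACIT chains sit on their surface. Type IV chains form the sheet-like network of basement membranes under epithelia and around blood vessels, type VI chains form beaded filaments, and type VIII and type X chains form networks of short molecules. In tumors, fibroblasts are known as the main source of fibrillar collagen, and endothelial cells and pericytes contribute to type IV collagen.

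Expected counts, the number of fragments estimated for each gene, summed to between 33237744 and 48481461 per tumor. Values are given below as CPM, which are expected counts scaled to library size with TMM factors, or as TPM, which are also divided by gene length. The main tests used counts, while TPM served to compare genes and, for many genes and class sums, to describe tumors. Between responders and non-responders, the median log2 fold change over all genes was 0.17 on the log2(TPM + 1) scale and 0.01 in the test on counts. A gene higher in responders therefore tends to show a wider gap to non-responders in TPM than in CPM. The non-responder 33R stood apart. Its slope of log2 CPM on log2 gene length was -0.31, against -0.10 to 0.08 in the other 13 tumors, and its mean fragment length of 287.8 bases was the highest. Long transcripts therefore read low in that library. Mice 14, 30 and 33 each gave a tumor from both flanks (L and R), and in the tests each tumor counted as a replicate. Of the markers of colon epithelium, Krt20 was at 107.3 to 340.1 TPM, while Cdx1 was listed at 0 in every tumor and Vil1 did not exceed 0.18 TPM. Of the 6 that were tested, Cdx2, at most 0.41 TPM, was called lower in responders than in control IgG tumors (log2 fold change -1.97 ± 0.55, edgeR adjusted p = 0.0303), and no other passed in any comparison.

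All collagens together held 0.0575% to 0.177% of the TPM of a tumor. Of the 44 genes, 21 had a mean TPM of at least 1 over the 14 tumors, 16 of at least 10, and 2 of at least 100. The leading genes were Col1a2 (mean 336.1 TPM), Col3a1 (237.9) and Col1a1 (90.04), all fibrillar, which together held 61.3% of the mean collagen TPM, and the leading 8 genes held 85.7%. These were the chains of type I, III, IV, VI, VIII and XVI. Fibrillar chains made up 58.2% to 72.7% of the collagen TPM of a tumor, basement membrane chains 10.1% to 19.5%, beaded filament chains 5.06% to 9.23% and FACIT chains 4.96% to 6.51%.

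Summed over all collagens, TPM was 1129.9, 767.3, 1008.6, 921.4 and 854.5 in the control IgG tumors 14L, 14R, 16R, 17R and 20R. It was 1769.3, 1079.8, 1361.3, 1434.9 and 1187.6 in the responders 24L, 26R, 30L, 30R and 35L, and 861.6, 760.5, 1449.0 and 575.4 in the non-responders 29L, 32R, 33L and 33R. The responders overlapped with the control IgG tumors through 26R, which was below 14L, and with the non-responders through 33L. The mean was 1366.6 ± 265.1 TPM in responders (SD, n = 5), 936.3 ± 139.8 in control IgG tumors (n = 5) and 911.6 ± 377.4 in non-responders (n = 4). On the CPM scale the means were 5366.6 ± 839.6, 4033.1 ± 445.6 and 4189.8 ± 1309.9, so that responders stood at 1.28 times the non-responders in CPM and at 1.5 times in TPM. No test was made of these sums.

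By class, mean fibrillar TPM was 933.2 ± 228.4 in responders, 572.4 ± 86.1 in control IgG tumors and 583.5 ± 274.9 in non-responders. In CPM the fibrillar means were 3632.2 ± 770.3, 2450.9 ± 269.6 and 2679.8 ± 991.9, so that responders stood at 1.36 times the non-responders in CPM and at 1.60 times in TPM. Basement membrane chains summed to 165.4 to 212.0 TPM in responders, 91.5 to 165.2 in control IgG tumors and 65.8 to 186.2 in non-responders. In CPM these sums overlapped between all groups, at 828.5 to 956.3, 519.5 to 844.7 and 462.4 to 917.8 in the same order. Beaded filament chains overlapped widely, with means of 90.9 ± 19.3, 79.7 ± 14.9 and 66.1 ± 21.9 TPM in the same order. FACIT chains had means of 75.5 ± 14.6, 55.1 ± 7.19 and 50.6 ± 19.4 TPM. For beaded filament chains, responders stood at 1.17 times the non-responders in CPM and at 1.38 times in TPM. For FACIT chains these ratios were 1.27 and 1.49. In CPM, the mean sum in responders was below that of control IgG tumors for the short-chain network, at 119.1 ± 24.0 against 172.7 ± 18.3, and by less than 1 SD for multiplexins (161.5 against 163.5) and transmembrane chains (12.8 against 13.2). In TPM the short-chain network stood at 31.5 ± 6.09 TPM in responders, 41.6 ± 4.83 in control IgG tumors and 33.8 ± 7.18 in non-responders. It held 1.99% to 2.91% of the collagen TPM in responders, 3.55% to 5.36% in control IgG tumors and 2.91% to 4.49% in non-responders.

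**Figure D1:**
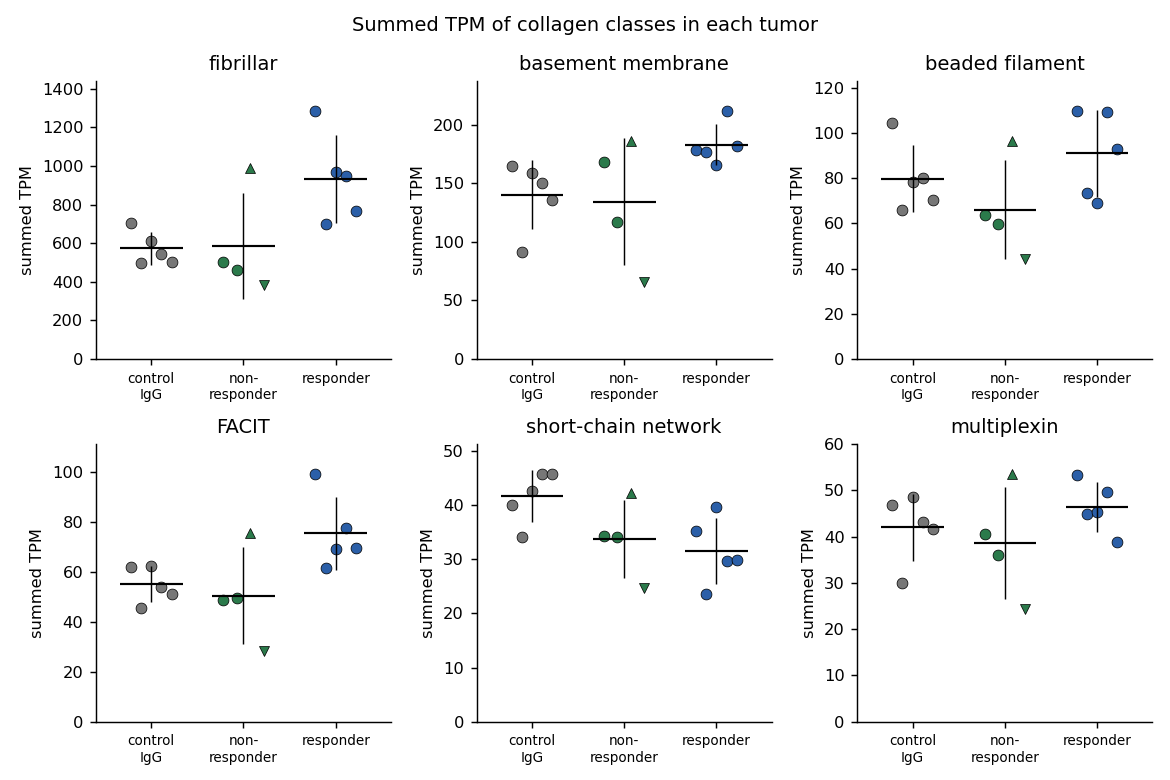
Summed TPM (linear axis from 0) of 6 collagen classes in each tumor of the control IgG, non-responder and responder groups; horizontal lines are group means and vertical lines 1 SD, and among non-responders 33L is drawn as an upward and 33R as a downward triangle. The responder mean is the highest for every class drawn but the short-chain network, and 33L and 33R lie at the 2 ends of the non-responders in each of the 6 classes.

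Which collagen genes differed between tumors that responded to anti-PD-1 and tumors that did not was tested gene by gene with edgeR's quasi-likelihood test, adjusted over the 16287 genes that had enough counts. Of the 44 collagen genes, 34 were tested. Between responders and non-responders, 3 collagen genes had an adjusted p under 0.05. Col1a2, a chain of type I collagen, and Col8a2, a chain of type VIII, were higher in responders, and Col10a1, the chain of type X, was lower. The 2 higher genes compare with 5.08% of all genes tested that were called higher, and the 1 lower gene with 4.82% called lower, so that the share of collagens called was near that of all genes. The median log2 fold change of the 34 genes was 0.30, against 0.01 over all genes, and 29 were positive. It was 0.19 without 33R and 0.48 without 33L. With an offset for gene length the median was 0.11 and 23 were positive, and on the log2(TPM + 1) scale it was 0.36 against 0.17 over all genes. With that length offset 1 gene was called higher (Col1a2) and 3 lower (Col8a1, Col10a1 and Col18a1), with an offset for GC content 1 was called higher (Col8a2) and 1 lower (Col10a1), and on the TPM scale 2 were called higher (Col1a2 and Col8a2) and none lower. Over all genes, the TPM scale gave 1969 higher and 191 lower calls in place of 827 and 785. The count depended on single tumors. Without the non-responder 33L it was 9, of which 8 were higher (Col1a1, Col1a2, Col5a1, Col5a2, Col8a2, Col14a1, Col15a1 and Col28a1) and Col10a1 lower, without 33R it was 1, and without the responder 24L or the non-responder 32R it was 0. Calls over all genes also changed in these fits. They numbered 1774 without 33L, of which 848 of 16525 genes were higher. Without 33R they numbered 793, without 24L 569 and without 32R 615, against 1612 with all tumors. In bulk tumors, fewer cells of a type and less RNA per cell cannot be told apart.

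Between responders and control IgG tumors, 6 collagen genes passed. Col1a1, Col1a2, Col11a1, Col27a1 and Col8a2 were higher in responders, against 7.88% of all genes called higher, and Col8a1 was lower, against 5.3% called lower. The median log2 fold change was 0.36, against -0.01 over all genes, and 28 of 34 were positive. It was 0.20 without the control IgG tumor 14R and 0.50 without 14L. On the log2(TPM + 1) scale 5 were called higher and none lower, and with 1 tumor per mouse 3 were called higher and 3 lower (Col8a1, Col17a1 and Col18a1). Between non-responders and control IgG tumors edgeR called none of the 34 collagen genes and 0 of all 16287 genes, which is 0% in each direction. At an unadjusted p under 0.05 there were 758 genes, of which 1 was a collagen gene, Col8a2. DESeq2 called 18 genes in this comparison, and limma-voom 0, in neither case a collagen gene. Here 20 of 34 collagen genes were positive and the median was 0.07, and without 33L 9 were positive and the median was -0.15. Responders were compared with both other groups, so that the first 2 comparisons share their tumors.

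**Figure D2:**
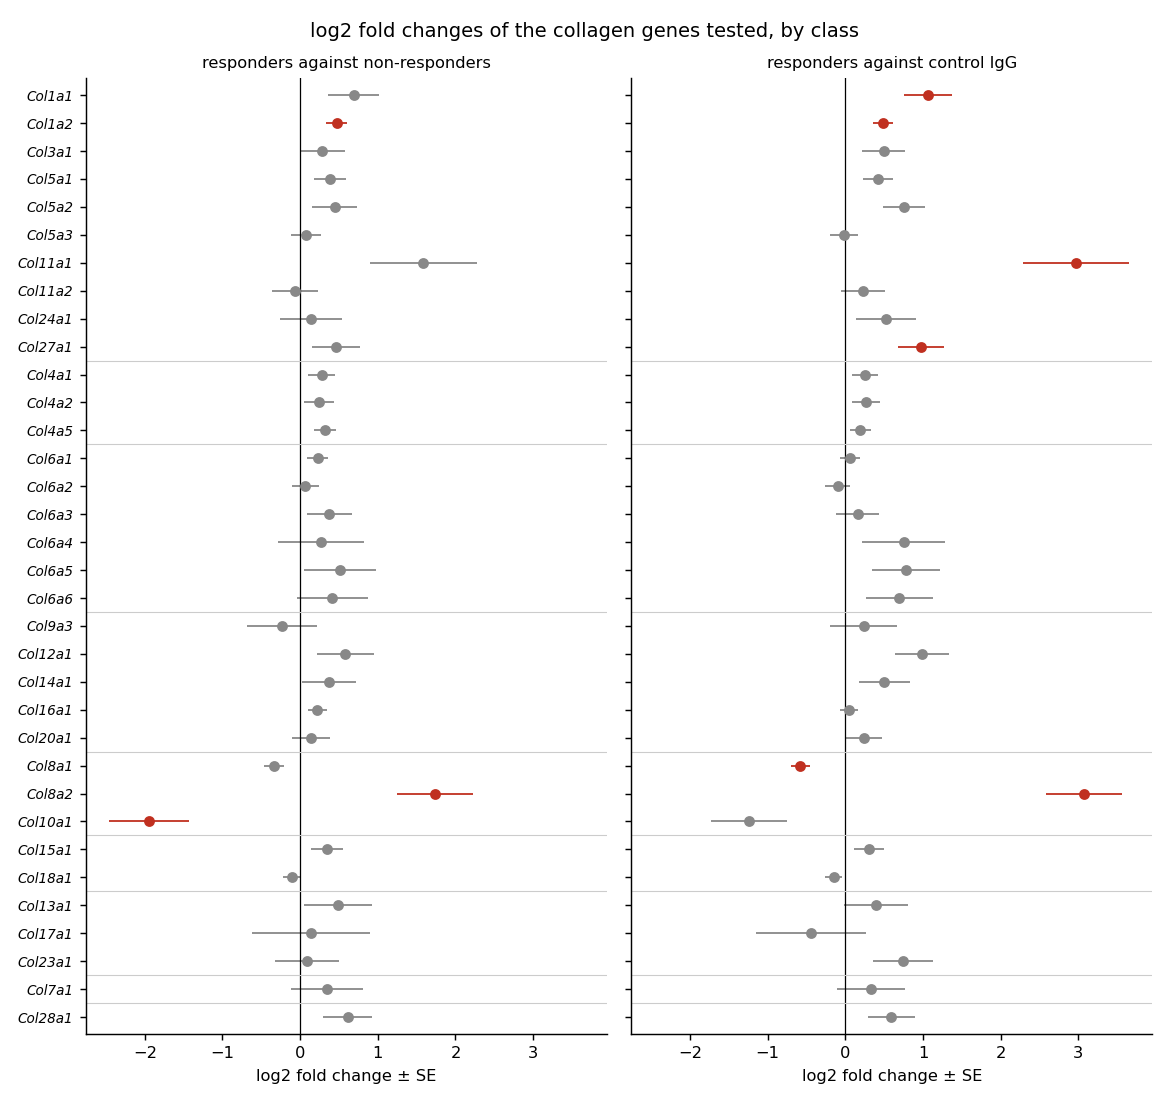
Log2 fold changes with standard errors (horizontal bars) of the 34 collagen genes tested, in responders against non-responders (left) and against control IgG tumors (right), grouped by class with the fibrillar chains at the top; red marks an edgeR adjusted p under 0.05. The short-chain network holds genes called in both directions, and the largest positive values are those of Col8a2 and Col11a1.

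The fibrillar class was described first. Type I collagen, the main fibril-forming protein of stroma, is built from Col1a1 (chr11:94936224-94953042) and Col1a2 (chr6:4504814-4541544) chains. Gene coordinates are those of GENCODE on GRCm38. CPM of Col1a2 was 1316.6, 1135.9, 1256.3, 1242.3 and 1175.3 in the control IgG tumors 14L, 14R, 16R, 17R and 20R, the order kept below. It was 2061.7, 1471.7, 1695.3, 1678.7 and 1652.3 in the responders 24L, 26R, 30L, 30R and 35L, and 1185.4, 1266.7, 1607.4 and 885.7 in the non-responders 29L, 32R, 33L and 33R. Every responder lay above every control IgG tumor, and of the non-responders 33L reached into the range of the responders. The log2 fold change of Col1a2 was 0.48 ± 0.13 (SE) against control IgG tumors (edgeR adjusted p = 0.0264) and 0.47 ± 0.14 against non-responders (edgeR adjusted p = 0.0475). The first call was lost on the omission of 14R, 20R, 24L or 30R (adjusted p 0.0511 to 0.0775). The second call was kept on the omission of 14R, 26R or 33L and was not kept on the omission of any of the other 11 tumors (adjusted p 0.0586 to 0.119), nor with 1 tumor per mouse (0.111).

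CPM of Col1a1 was 354.7, 229.3, 341.0, 272.6 and 238.1 in control IgG tumors, 1019.8, 403.8, 642.5, 525.5 and 406.8 in responders, and 252.8, 260.0, 688.0 and 288.8 in non-responders. The responders were all above the control IgG tumors, with 24L the highest, and 33L alone of the non-responders stood among them. Against control IgG tumors the log2 fold change of Col1a1 was 1.06 ± 0.31 (edgeR adjusted p = 0.0346), and without 24L it was 0.79 (adjusted p 0.109). Omission of 14R, 16R, 17R, 20R, 30L or 30R also ended this call, with adjusted p between 0.0505 and 0.0917, as did the use of 1 tumor per mouse (0.0654). Against non-responders it was 0.69 ± 0.33 (edgeR adjusted p = 0.187), and without 33L it was 1.18 (0.025).

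In TPM, Col1a2 exceeded Col1a1 in every tumor. The ratio of Col1a2 to Col1a1 was 4.20 to 5.63 in control IgG tumors, and it was 2.28 to 4.64 in responders against 2.64 to 5.65 in non-responders. In the protein the usual ratio is the reverse, with more of the Col1a1 chain. The lowest ratios, 2.28 in 24L and 2.64 in 33L, were in the responder and the non-responder with the highest Col1a1.

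The promoter window of Col1a2, 250 bases before and 50 from the start on, is shown because Col1a2 passed in both comparisons of responders. Promoter sequences were those of RefSeq on GRCm38.p6, which gave 38 windows for 35 of the 44 genes. Entries were not matched for Col1a1, Col2a1, Col4a3, Col5a2, Col9a3, Col12a1, Col14a1, Col22a1 and Col26a1. Capitals mark matches on either strand, which may overlap, to the TATA box motif TATAAA, the CCAAT box motif, the GC box motif GGGCGG and the AP-1 motif TGANTCA. Of all 32851 windows in the table, 13.6% held TATAAA, 37.4% CCAAT, 35.7% GGGCGG and 7.81% TGANTCA, and of the 38 collagen windows 13.2%, 34.2%, 60.5% and 2.63% did. The Col1a2 window (chr6:4505368-4505667, + strand) held CCAAT and GGGCGG at 2 places each. It was placed on the RefSeq start, which lies downstream of the GENCODE start, so the window is wholly within the GENCODE coordinates of Col1a2 given above.
Col1a2: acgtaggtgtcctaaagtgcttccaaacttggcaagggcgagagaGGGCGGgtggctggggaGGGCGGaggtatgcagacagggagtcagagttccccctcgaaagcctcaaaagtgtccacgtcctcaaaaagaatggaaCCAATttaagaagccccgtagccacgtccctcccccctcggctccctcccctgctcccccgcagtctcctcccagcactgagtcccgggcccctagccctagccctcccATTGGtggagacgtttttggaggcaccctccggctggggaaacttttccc

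Col3a1, the chain of type III collagen, which forms fibrils with type I, was at 254.7, 187.0, 202.7, 162.6 and 162.0 TPM in control IgG tumors, 450.8, 202.1, 356.2, 316.0 and 221.0 in responders, and 146.5, 104.8, 397.5 and 166.3 in non-responders. Of the responders, 24L, 30L and 30R were above all control IgG tumors, and 26R and 35L were within their range. Its log2 fold change was 0.49 ± 0.27 against control IgG tumors (edgeR adjusted p = 0.261) and 0.28 ± 0.29 against non-responders (edgeR adjusted p = 0.558). Col5a1 and Col5a2, chains of type V collagen, which takes part in starting fibrils, had means of 22.1 ± 4.93 and 21.6 ± 5.92 TPM in responders and 15.1 ± 3.18 and 11.8 ± 2.74 in control IgG tumors. Neither passed in a comparison (lowest edgeR adjusted p = 0.081, Col5a2 against control IgG tumors), and Col5a3 had a log2 fold change of -0.02 ± 0.18 there.

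**Figure D3:**
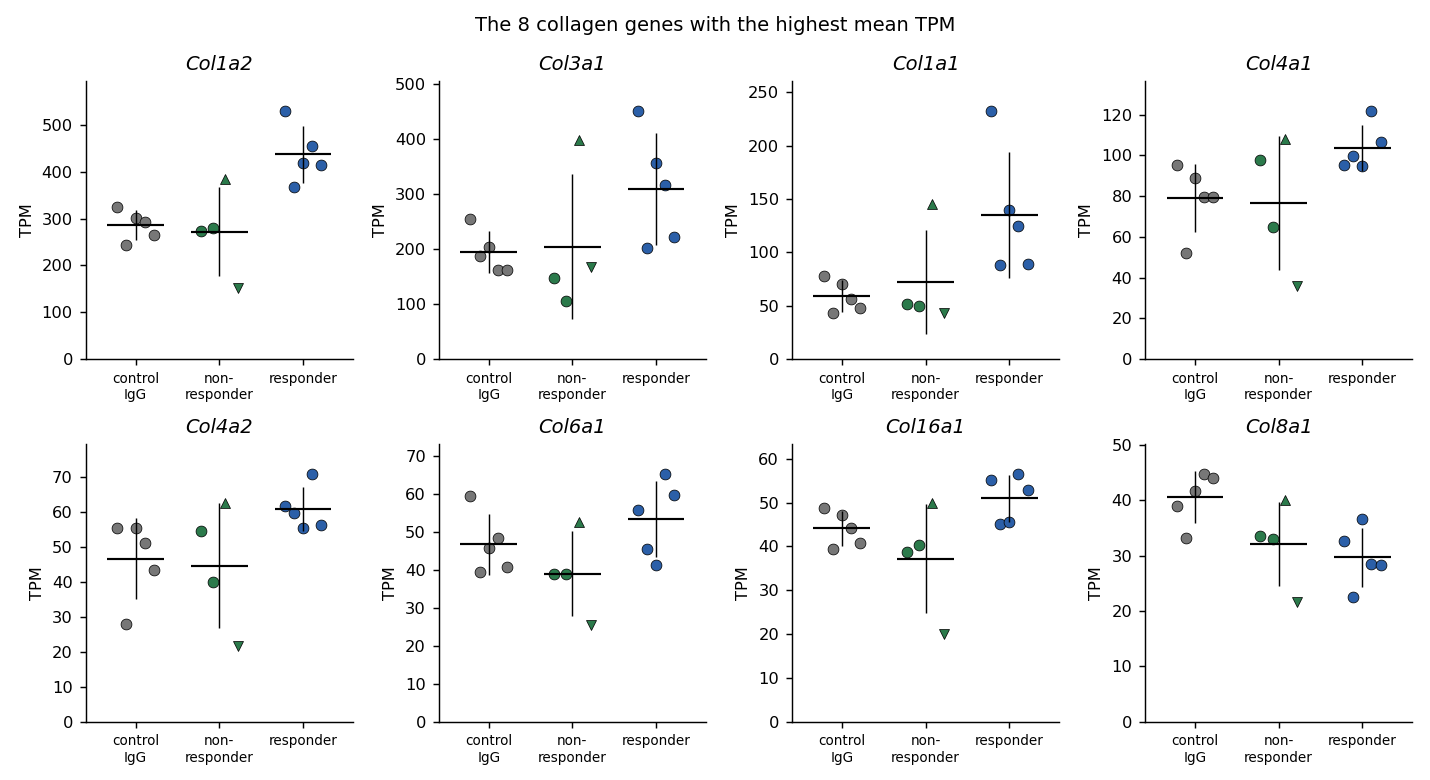
TPM (linear axis from 0) of the 8 collagen genes with the highest mean TPM in each tumor of the 3 groups, with the group mean and 1 SD; 33L is the upward and 33R the downward triangle. Col8a1 is the only 1 of the 8 whose responder mean, 29.7 TPM, lies below those of both other groups.

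The minor fibrillar chains were low, and some of them showed the larger fold changes. Col11a1, a chain of type XI collagen, which is known from cartilage and from activated fibroblasts, was at 0.256, 0.448, 0.447, 0.338 and 0.229 CPM in control IgG tumors, 4.90, 1.22, 4.81, 1.27 and 1.35 in responders, and 0.0997, 0.255, 1.93 and 1.36 in non-responders. The responders did not overlap with the control IgG tumors, 24L and 30L were far above the other responders, and the 2 non-responders of mouse 33 lay within the responder range. In the test, Col11a1 had a log2 fold change of 2.97 ± 0.68 against control IgG tumors (edgeR adjusted p = 0.0117), a call kept on the omission of each tumor, and 1.59 ± 0.69 against non-responders (edgeR adjusted p = 0.148). The gene was thinly counted, with 4 to 212 expected counts per tumor.

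Col27a1, another fibrillar chain, was at 1.59, 1.17, 1.45, 1.04 and 1.01 CPM in control IgG tumors, 4.05, 1.66, 2.46, 2.07 and 2.01 in responders, and 1.40, 1.32, 3.09 and 1.30 in non-responders. Responders and control IgG tumors did not overlap, though 26R and 14L lay close together. The log2 fold change of Col27a1 against control IgG tumors was 0.97 ± 0.29 (edgeR adjusted p = 0.0426). This call was lost on the omission of 14R, 16R, 17R, 20R, 24L, 30L, 30R or 35L (adjusted p 0.05 to 0.133), with 1 tumor per mouse, without the filter on low counts, with the GC offset and on the TPM scale. Col11a2 and Col24a1 were at 0.302 and 0.126 TPM on average in control IgG tumors and did not pass in any comparison. Of the 10 fibrillar genes tested, 4 rose against control IgG tumors, where 7.88% of all genes were called higher, and 1 rose against non-responders, where 5.08% were.

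Among basement membrane chains, Col4a1 and Col4a2 encode the chains of the ubiquitous type IV network. They lie head to head on chromosome 8 (chr8:11198423-11312826 on the - strand and chr8:11312805-11449287 on the + strand), with starts 21 bases apart. Their promoter windows, chr8:11312777-11313076 and chr8:11312555-11312854, share 78 bases and are shown because both chains are read from this one region and kept nearly the same ratio. Each is written 5′ to 3′ on the strand of its gene, with the same letters in capitals as above.
Col4a1: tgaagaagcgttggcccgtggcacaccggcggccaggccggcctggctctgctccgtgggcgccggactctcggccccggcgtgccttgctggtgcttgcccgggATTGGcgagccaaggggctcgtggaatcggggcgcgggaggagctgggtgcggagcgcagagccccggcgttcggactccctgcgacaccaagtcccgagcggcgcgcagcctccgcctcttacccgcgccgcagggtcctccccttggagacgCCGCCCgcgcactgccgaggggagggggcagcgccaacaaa
Col4a2: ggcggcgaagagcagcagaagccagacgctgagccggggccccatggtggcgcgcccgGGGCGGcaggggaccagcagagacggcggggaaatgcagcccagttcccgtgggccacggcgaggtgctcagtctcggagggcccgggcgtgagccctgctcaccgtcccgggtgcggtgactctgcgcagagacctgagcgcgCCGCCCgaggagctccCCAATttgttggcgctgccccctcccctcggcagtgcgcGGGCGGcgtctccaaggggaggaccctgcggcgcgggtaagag

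TPM of Col4a1 was 95.3, 52.0, 89.0, 79.5 and 79.5 in control IgG tumors, 95.4, 99.9, 94.7, 121.9 and 106.7 in responders, and 97.9, 64.8, 108.0 and 35.9 in non-responders. TPM of Col4a2 was 55.5, 27.9, 55.4, 51.1 and 43.4 in control IgG tumors, 61.9, 59.7, 55.5, 71.1 and 56.3 in responders, and 54.7, 40.0, 62.5 and 21.7 in non-responders. For both chains, the control tumor 14R and the non-responder 33R were the lowest of their groups, and the ratio of Col4a1 to Col4a2 stayed between 1.54 and 1.90 over the 14 tumors. Their log2 fold changes were 0.25 ± 0.17 and 0.26 ± 0.18 against control IgG tumors (edgeR adjusted p = 0.348 and 0.382) and 0.28 ± 0.18 and 0.24 ± 0.19 against non-responders (edgeR adjusted p = 0.325 and 0.438). Col4a5, on the X chromosome, averaged 18.4 ± 2.33 TPM in responders, 14.7 ± 3.24 in control IgG tumors and 12.9 ± 3.45 in non-responders, and it did not pass either. Col4a3, Col4a4 and Col4a6, known from specialized basement membranes such as that of the kidney, were under 0.06 TPM in every tumor and were not tested.

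Col6a1, Col6a2 and Col6a3 form the main type VI molecule of beaded filaments. TPM of Col6a1 was 59.5, 39.4, 45.8, 48.4 and 40.8 in control IgG tumors, 55.7, 45.4, 41.2, 65.4 and 59.8 in responders, and 38.8, 39.0, 52.8 and 25.5 in non-responders. The 3 groups overlapped. For Col6a1 the log2 fold change was 0.06 ± 0.13 against control IgG tumors (edgeR adjusted p = 0.797), with other signs under 3 alternative fits, and 0.23 ± 0.13 against non-responders (edgeR adjusted p = 0.293). Col6a2 and Col6a3 averaged 20.5 ± 4.49 and 16.5 ± 7.47 TPM in responders and 19.9 ± 3.31 and 12.9 ± 3.90 in control IgG tumors. Col6a4, Col6a5 and Col6a6 did not exceed 0.22 TPM in any tumor. None of the 6 beaded filament genes passed in a comparison.

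Among the 9 FACIT genes, 5 were tested and none passed. The leading gene was Col16a1, found along fibrils and near basement membranes, at 48.8, 39.3, 47.2, 44.3 and 40.8 TPM in control IgG tumors, 55.1, 45.1, 45.5, 56.6 and 52.7 in responders, and 38.6, 40.3, 49.9 and 20.0 in non-responders. The low value was again that of 33R. Its log2 fold change was 0.05 ± 0.12 against control IgG tumors (edgeR adjusted p = 0.822), with another sign under 2 alternative fits, and 0.22 ± 0.12 against non-responders (edgeR adjusted p = 0.26). Col12a1, the chain of type XII collagen on the surface of type I fibrils, averaged 89.6 ± 24.6 CPM in responders and 45.2 ± 18.5 in control IgG tumors. For Col12a1 the log2 fold change against control IgG tumors was 0.99 ± 0.35 (edgeR adjusted p = 0.074), and DESeq2, among other alternatives, did call it. Col14a1, Col9a3 and Col20a1 had log2 fold changes of 0.50, 0.23 and 0.25 against control IgG tumors and did not pass.

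The short-chain network held calls in both directions. Col8a1 and Col8a2 encode the chains of type VIII collagen, a network collagen known from vessel walls and from the membrane beneath the corneal endothelium. CPM of Col8a2 was 0.398, 0.726, 0.604, 0.386 and 0.480 in control IgG tumors, 7.19, 2.51, 6.92, 2.27 and 3.12 in responders, and 0.548, 0.533, 1.84 and 2.41 in non-responders. Every responder was above every control IgG tumor, and of the non-responders only 33R, at 2.41, exceeded a responder, 30R. In TPM the responders, at 0.75 to 2.29, did not overlap with the non-responders, at 0.14 to 0.54. The log2 fold change of Col8a2 was 3.07 ± 0.48 against control IgG tumors (edgeR adjusted p = 0.00174), and this call was kept under all 12 alternatives and on the omission of each tumor (adjusted p at most 0.00687). Against non-responders it was 1.73 ± 0.49 (edgeR adjusted p = 0.0395). The latter was lost on the omission of 16R, 17R, 20R, 24L, 29L, 30L or 32R (adjusted p 0.0507 to 0.104), with the length offset (0.0712) and with only the groups compared in the fit (0.0966).

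CPM of Col8a1 was 152.4, 150.2, 172.6, 185.2 and 188.7 in control IgG tumors, 122.5, 88.1, 144.9, 102.6 and 110.3 in responders, and 141.5, 148.5, 162.2 and 123.1 in non-responders. All responders were below all control IgG tumors in CPM, while in TPM they overlapped, with 36.6 in 30L against 33.1 in 14R. The log2 fold change of Col8a1 was -0.58 ± 0.12 against control IgG tumors (edgeR adjusted p = 0.0079), a call kept on the omission of each tumor and lost on the TPM scale (adjusted p 0.0811). Against non-responders it was -0.34 ± 0.13 (edgeR adjusted p = 0.107), and with the length offset -0.53 (0.0194). The 2 chains of type VIII collagen thus differed from control IgG tumors in opposite directions. Col8a1 was the far more abundant chain in every tumor, and the ratio of Col8a1 to Col8a2 in TPM was 174.4 to 407.5 in control IgG tumors, 42.6 to 235.9 in non-responders and 14.3 to 37.9 in responders. Col8a2 was thinly counted, with 14 to 311 expected counts per tumor. At 0.11 to 0.19 TPM of Col8a2 in control IgG tumors, the ratios there are rough. The ratio joins 2 genes called in opposite directions against control IgG tumors, so its separation of the groups adds no support to those calls. The gap to the non-responders lies between 30R and 33R, which had 0.75 and 0.51 TPM of Col8a2.

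The promoter windows of Col8a1 (chr16:57754688-57754987, - strand) and Col8a2 (chr4:126286544-126286843, + strand) are shown because the genes of these 2 chains moved in opposite directions. Each held GGGCGG or its complement at 4 places and none of the other 3 motifs, and GC made up 60.3% and 71.7% of the letters, against a median of 52.7% over all windows. A match describes letters only.
Col8a1: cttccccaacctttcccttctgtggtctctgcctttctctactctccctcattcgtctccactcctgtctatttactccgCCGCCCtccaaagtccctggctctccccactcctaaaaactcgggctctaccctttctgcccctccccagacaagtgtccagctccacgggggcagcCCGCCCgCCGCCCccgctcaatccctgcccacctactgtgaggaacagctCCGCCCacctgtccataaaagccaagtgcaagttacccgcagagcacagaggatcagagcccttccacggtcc
Col8a2: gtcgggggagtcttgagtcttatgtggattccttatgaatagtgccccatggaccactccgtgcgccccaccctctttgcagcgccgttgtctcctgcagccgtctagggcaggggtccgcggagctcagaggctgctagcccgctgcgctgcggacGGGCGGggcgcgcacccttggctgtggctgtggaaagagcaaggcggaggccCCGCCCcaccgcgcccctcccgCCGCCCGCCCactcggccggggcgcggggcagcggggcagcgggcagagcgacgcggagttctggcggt

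**Figure D4:**
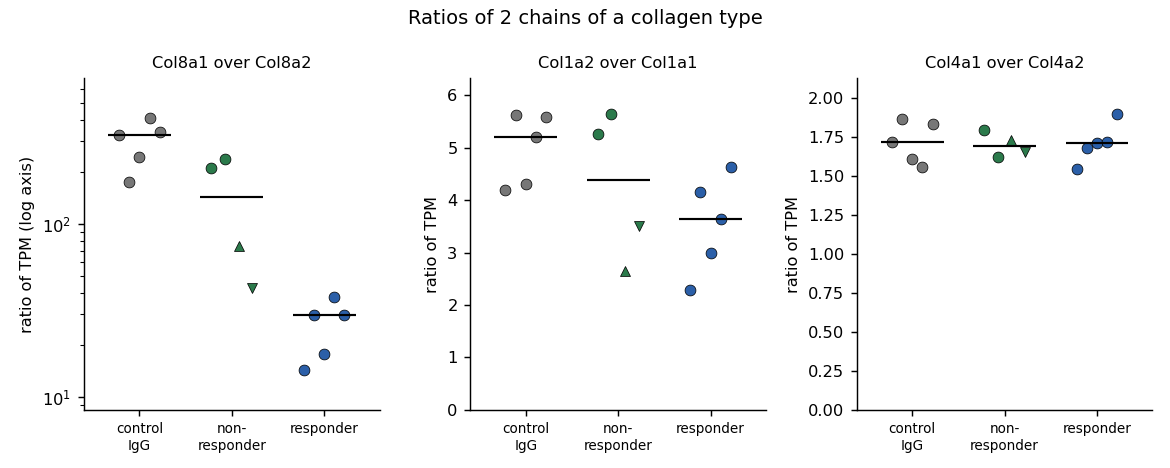
Ratio of TPM between 2 chains in each tumor, for Col8a1 over Col8a2 (log axis), Col1a2 over Col1a1 and Col4a1 over Col4a2 (linear axes from 0); lines are group medians, and 33L and 33R are the upward and downward triangles. The type VIII ratio is at most 37.9 in the responders and at least 42.6 in all other tumors, while the type IV ratio stays between 1.54 and 1.90. Col8a1 and Col8a2 were called in opposite directions against control IgG tumors, so the separation of their ratio adds no support to the calls. The share of gene pairs that separate as well was not computed.

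Col10a1, the chain of type X collagen, which is known from the growth plate of bone, was at 2.10, 2.16, 1.92, 1.76 and 4.07 CPM in control IgG tumors, 0.393, 0.729, 1.98, 0.894 and 1.09 in responders, and 1.07, 2.59, 3.94 and 8.11 in non-responders. All responders but 30L were below all control IgG tumors, and the non-responder 29L lay within the responder range. In the test, Col10a1 had a log2 fold change of -1.94 ± 0.51 against non-responders (edgeR adjusted p = 0.0308) and -1.24 ± 0.49 against control IgG tumors (edgeR adjusted p = 0.11, or 0.0454 with only those groups in the fit). The call against non-responders was lost on the omission of 24L, 26R, 30R, 32R, 33R or 35L (adjusted p 0.051 to 0.121), in limma-voom (0.0646), on the TPM scale (0.0565), with 1 tumor per mouse (0.184) and with only the groups compared (0.0787). Without 33R the log2 fold change was -1.30.

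Col10a1 (chr10:34389981-34397085, + strand) lies within Nt5dc1 (chr10:34288288-34418552) on the opposite strand, with which it shares 18 exonic bases, and fragments without strand cannot be told apart where the genes overlap. Nt5dc1 itself had a log2 fold change of -0.10 ± 0.12 between responders and non-responders (edgeR adjusted p = 0.646). The summed TPM of 6 chondrocyte markers was 2.94 to 4.95 in responders, 3.13 to 5.25 in non-responders and 4.67 to 7.67 in control IgG tumors, most of it Sox9, which other cells also express. Sox9 fell against control IgG tumors by 0.86 on the log2 scale (edgeR adjusted p = 0.00568) and had a log2 fold change of -0.51 ± 0.18 against non-responders (edgeR adjusted p = 0.0871). Matn3, the other marker tested, was at 0.99 ± 0.43 and 0.65 ± 0.45 in these comparisons (edgeR adjusted p = 0.149 and 0.37). The cartilage matrix genes Acan, Matn1 and Hapln1 were at most 0.04, 0.06 and 0.02 TPM in any tumor, and Cnmd at most 0.18. Their part in the Col10a1 values was not tested. The promoter window of Col10a1 (chr10:34389731-34390030), shown because this was the collagen gene called lower against non-responders, held 1 TATAAA and none of the other 3 motifs.
Col10a1: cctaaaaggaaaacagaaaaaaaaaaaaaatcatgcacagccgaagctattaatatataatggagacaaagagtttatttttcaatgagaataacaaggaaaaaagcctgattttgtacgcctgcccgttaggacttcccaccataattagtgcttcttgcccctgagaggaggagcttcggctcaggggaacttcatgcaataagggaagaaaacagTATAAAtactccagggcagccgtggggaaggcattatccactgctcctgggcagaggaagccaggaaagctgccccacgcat

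**Figure D5:**
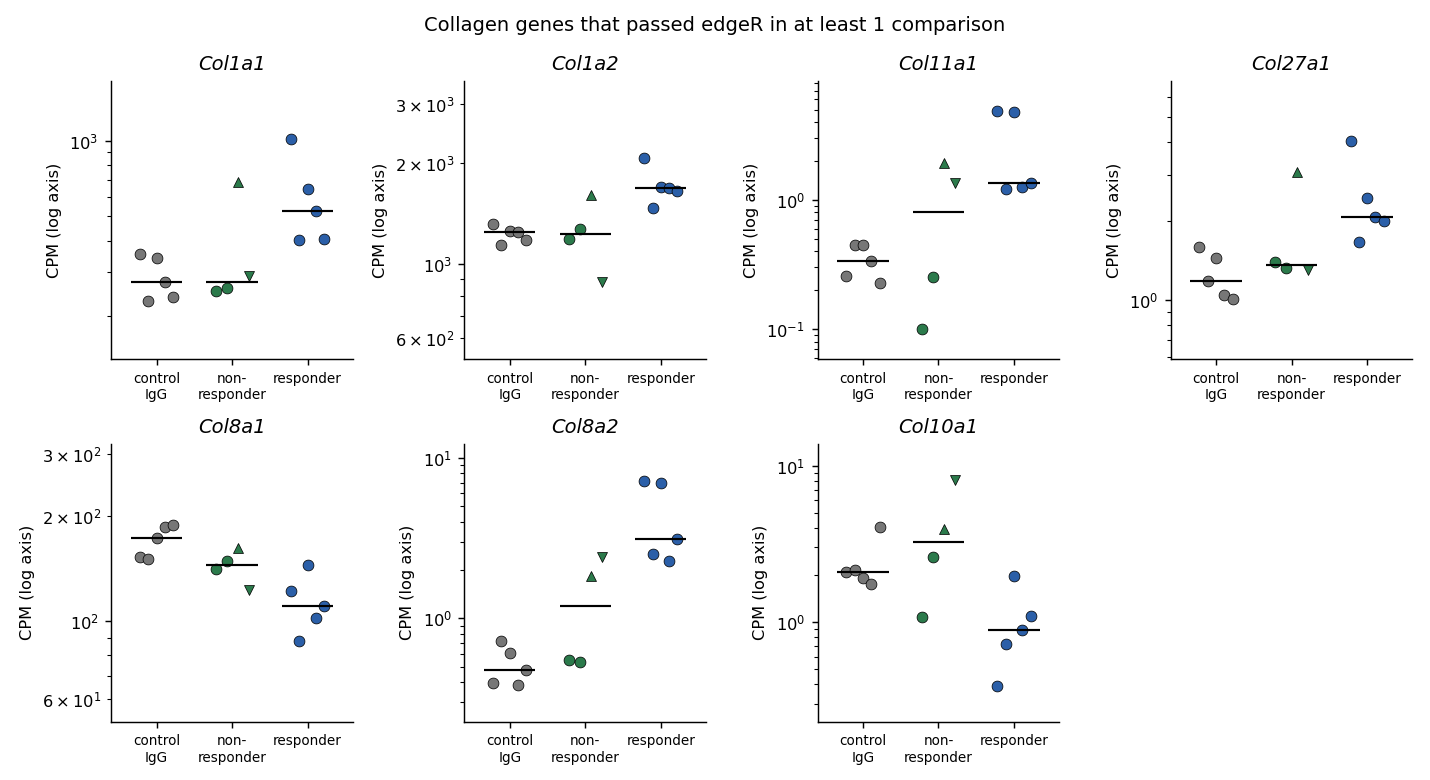
CPM (log axis) of the 7 collagen genes that passed edgeR in at least 1 comparison, in each tumor; lines are group medians, and 33L and 33R are the upward and downward triangles. The responders lie above all control IgG tumors for Col1a1, Col1a2, Col11a1, Col27a1 and Col8a2 and below them for Col8a1. These are the genes called in that comparison, so their separation adds no support to the calls. Col5a2 and Col12a1, which were not called and are not drawn, did not overlap there in CPM either. The share of all genes without overlap was not computed.

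The multiplexins Col15a1 and Col18a1 belong to basement membrane zones, and the end of the Col18a1 chain is the source of endostatin. TPM of Col18a1 was 35.7, 22.8, 36.6, 33.2 and 30.5 in control IgG tumors, 31.5, 30.9, 31.3, 35.2 and 28.5 in responders, and 31.4, 29.1, 37.8 and 17.9 in non-responders. The groups overlapped, and its log2 fold changes were -0.15 ± 0.11 and -0.10 ± 0.12 against control IgG tumors and non-responders (edgeR adjusted p = 0.407 and 0.612), with another sign in 3 refits and calls in the lower direction under the length offset (adjusted p 0.0292 and 0.048), and against control IgG tumors also with 1 tumor per mouse (0.033). Col15a1 averaged 14.9 ± 4.17 TPM in responders, 10.3 ± 1.83 in control IgG tumors and 9.63 ± 4.33 in non-responders and did not pass.

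Col17a1, a transmembrane collagen that anchors basal keratinocytes, and Col7a1, which forms the anchoring fibrils beneath the epidermis, varied widely between the tumors of each group. TPM of Col17a1 was 3.71, 0.16, 2.39, 2.07 and 2.35 in control IgG tumors, 1.49, 0.31, 0.52, 4.77 and 1.86 in responders, and 2.31, 1.80, 1.55 and 0.39 in non-responders. The summed TPM of 10 skin epidermis markers was 555.1, 6.73, 428.6, 317.1 and 348 in the same control IgG tumors, 109.8, 27.96, 12.66, 819.1 and 228.9 in the responders, and 212.4, 209.9, 219 and 78.8 in the non-responders. The lowest and the highest Col17a1 values were in 14R and 30R, which also had the lowest and the highest epidermal sum. TPM of Col7a1 was 1.99, 0.32, 0.84, 0.88 and 1.36 in control IgG tumors, 2.06, 0.30, 0.52, 1.46 and 2.17 in responders, and 1.2, 1.54, 0.59 and 1.48 in non-responders. Neither gene passed against non-responders (edgeR adjusted p = 0.93 for Col17a1 and 0.674 for Col7a1) or control IgG tumors (0.729 and 0.675). Col17a1 was called lower against control IgG tumors with 1 tumor per mouse (adjusted p 0.0395).

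Col13a1 and Col23a1, the other transmembrane collagens tested, averaged 0.326 and 1.23 TPM in responders and 0.212 and 0.7 in control IgG tumors, without a call. Col28a1, a collagen known from peripheral nerve, was at 1.27, 0.61, 1.13, 0.54 and 0.7 TPM in control IgG tumors, 1.5, 0.85, 1.75, 1.69 and 1.18 in responders, and 0.67, 0.47, 1.47 and 0.54 in non-responders. Its log2 fold change was 0.59 ± 0.30 against control IgG tumors (edgeR adjusted p = 0.212) and 0.61 ± 0.32 against non-responders (edgeR adjusted p = 0.229), and without 33L the latter was 1.01 (0.0473). Of the Schwann cell markers, Mbp was at 2.53 to 2.99 TPM in responders and 1.17 to 2.24 in the other tumors, and the part of these cells in the Col28a1 values was not tested.

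The 10 collagen genes with too few counts to test were Col2a1, Col4a3, Col4a4, Col4a6, Col9a1, Col9a2, Col19a1, Col22a1, Col25a1 and Col26a1. None exceeded 0.16 TPM or 11 expected counts in any tumor, so that differences in them were not detectable at this depth. Col2a1 and the type IX chains Col9a1 and Col9a2 are cartilage collagens.

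The enzymes and partners of collagen were read from the same fit, in which 5.08% of all genes were called higher and 4.82% lower against non-responders, and 7.88% higher and 5.3% lower against control IgG tumors. Of 20 genes of collagen synthesis in the endoplasmic reticulum, 1 rose against non-responders and 2 against control IgG tumors, and none fell, which is near the shares of all genes. Plod1, a lysyl hydroxylase, had log2 fold changes of 0.30 ± 0.09 (edgeR adjusted p = 0.0416) and 0.29 ± 0.08 (edgeR adjusted p = 0.0323), and P4ha3, a subunit of prolyl 4-hydroxylase, rose by 1.05 ± 0.24 against control IgG tumors (edgeR adjusted p = 0.0123). The median log2 fold changes of the list were 0.05 and 0.09. Of 11 tested genes of procollagen cleavage and cross-linking, none passed against non-responders and 2 rose against control IgG tumors, namely Loxl3, a lysyl oxidase that cross-links collagen (0.68 ± 0.13, edgeR adjusted p = 0.0047), and Pcolce, an enhancer of procollagen cleavage (0.26 ± 0.08, edgeR adjusted p = 0.0426). Against non-responders the 2 genes of this list with the highest mean TPM, Pcolce and Loxl3, had log2 fold changes of 0.24 and 0.45 (edgeR adjusted p = 0.075 and 0.0545).

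Of 14 tested proteoglycans and glycoproteins that bind fibrils, 2 rose against non-responders, and 4 rose and 1 fell against control IgG tumors. Prelp, a leucine-rich proteoglycan, was at 33.98 to 44.21 TPM in responders, 11.83 to 18.43 in control IgG tumors and 8.27 to 24.31 in non-responders, with log2 fold changes of 1.27 ± 0.18 (edgeR adjusted p = 0.000991) and 1.10 ± 0.19 (edgeR adjusted p = 0.00741). Fmod, which guides fibril growth, rose by 2.90 ± 0.57 against control IgG tumors (edgeR adjusted p = 0.00515), and Postn, periostin, by 1.10 ± 0.28 (edgeR adjusted p = 0.0192). Tnxb, tenascin X, rose by 0.93 ± 0.27 against non-responders (edgeR adjusted p = 0.042). Dcn, decorin, which binds type I fibrils, fell by 0.88 on the log2 scale against control IgG tumors (SE 0.18, edgeR adjusted p = 0.00573), with 101.6 to 169.2 TPM in responders and 166.2 to 287.1 in control IgG tumors. The list medians were 0.34 and 0.37.

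Of 10 tested collagen receptors, 1 rose against non-responders, and 3 rose and 1 fell against control IgG tumors, beside 5.08% of all genes called higher in the former and 7.88% higher and 5.3% lower in the latter. Lair1, an inhibitory collagen receptor of leukocytes, had log2 fold changes of 0.39 ± 0.09 (edgeR adjusted p = 0.0218) and 0.43 ± 0.09 (edgeR adjusted p = 0.00566). The integrin chains Itga11 and Itga1 rose against control IgG tumors by 1.78 ± 0.44 and 0.56 ± 0.16 (edgeR adjusted p = 0.0173 and 0.0299), and their common partner Itgb1 fell by 0.24 on the log2 scale (edgeR adjusted p = 0.0485). None of 6 collagen-degrading enzymes passed, and the 2 with the highest mean TPM, Mmp14 and Ctsk, had log2 fold changes against non-responders of -0.04 ± 0.14 and -0.96 ± 0.46 (edgeR adjusted p = 0.895 and 0.188). Of 15 tested basement membrane partners, none passed against non-responders, where Sparc and Lamb1, the 2 with the highest mean TPM, were at 0.02 ± 0.10 and -0.12 ± 0.18 (edgeR adjusted p = 0.916 and 0.709). None of these 6 lists had a call between non-responders and control IgG tumors. Sparc stands in 2 of the lists.

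Markers of the cells that could carry collagen RNA, or that accompany it, were read in the same way. Of all genes tested, 5.08% were called higher and 4.82% lower against non-responders. Against control IgG tumors 7.88% were called higher and 5.3% lower. In lists this short, a single call does not set a list apart from all genes. Of 10 fibroblast markers none passed against non-responders, and Pi16 and Fbln1 rose and Dcn fell against control IgG tumors. Their summed TPM was 209.1 to 316.5 in responders, 258.6 to 405.2 in control IgG tumors and 234 to 391.2 in non-responders, and Dcn, the most abundant of them, weighs heavily in this sum. The median log2 fold change of the list was 0.34 against control IgG tumors and 0.10 against non-responders. Of 9 pericyte and smooth muscle markers, Kcnj8 fell in both comparisons of responders, and no other passed. The median log2 fold change of this list was positive, 0.17 against control IgG tumors and 0.23 against non-responders. Its summed TPM was 43.6 to 75.83 in responders, 42.24 to 60.13 in control IgG tumors and 32.77 to 70.93 in non-responders. Of 8 endothelial markers, 3 (Emcn, Tie1 and Esam) rose against control IgG tumors and none passed against non-responders, and the sum of the list was 143.8 to 188 TPM in responders, 88.3 to 125.7 in control IgG tumors and 104.6 to 137.7 in non-responders. T cell markers, which are not expected to carry these collagens, rose in 7 of 8 genes against non-responders and 8 of 8 against control IgG tumors, with sums of 49.5 to 100.1, 25.2 to 33.0 and 23.9 to 47.9 TPM in responders, non-responders and control IgG tumors. Of 8 macrophage markers, Adgre1 rose in both. No marker of skeletal muscle (8 genes), skin epidermis (10 genes) or adipocytes (6 genes) passed in any comparison. The part of any of these cell types in the collagen values was not tested.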

How the data were processed

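Tumor RNA was enriched with oligo(dT) beads and sequenced as paired ends. Alignment to mm10 was done by the authors with STAR (version 2.5 in the study's RNA-seq methods) and gene quantification with RSEM, whose version is not given in the sources used here. Per gene, the authors deposited the expected count, an estimated number of fragments without normalization. The authors also deposited TPM, in which that estimate is corrected for length and every tumor sums to 1 total. Deposited FPKM values entered no result. Gene symbols and coordinates were taken from the GENCODE annotation of GRCm38 (mm10), which matched 53706 of 53801 gene identifiers.

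Expected counts were rounded and tested with edgeR 4.0.16 in R 4.3.3 (TMM, filterByExpr, quasi-likelihood test, 3 groups, no covariates, Benjamini-Hochberg adjustment over 16287 genes). The threshold was an adjusted p of 0.05. Standard errors of log2 fold changes were derived from the test, as the absolute log2 fold change divided by the square root of its F statistic. The study reported that the left and right tumors of a mouse were correlated in size. Their barcode distributions were also more alike than those of different mice. Here such tumors counted as separate replicates, so p-values measure the spread between tumors and not between mice. With mouse as a random effect, the correlation fitted within a mouse was -0.282. No pair of tumors of a group agreed within sampling noise (lowest chi-square per gene 19.8). The fit was tested on simulated data.

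Every collagen gene was accounted for. Values in each tumor were given for genes with an adjusted p under 0.05 in any comparison, for the 8 with the highest mean TPM and for the leading gene of each class. From each list of partners, at most 4 genes per comparison were named, those with the largest absolute change among those that passed, or the 2 with the highest mean TPM where none did. The comparison of basement membrane partners with control IgG tumors is not reported here. The collagen genes, classes and lists were chosen with earlier results of these data known. Alternatives were DESeq2 1.42.0, limma-voom of limma 3.58.1, the same with a random effect of mouse, 1 tumor per mouse, other normalizations, no filter on low counts, only the groups compared, offsets for gene length and GC content, log2(TPM + 1), a skin epidermis covariate, a fold threshold, and the omission of each tumor. Promoter sequences came from RefSeq on GRCm38.p6.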

Additional observations from a re-analysis of the deposited data

Results flagged for a closer look

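A tumor was called far from the others of its group where its gap to the nearest tumor exceeded Dixon's critical share of the range of log2 CPM. This was examined for 16 collagen genes in 3 groups, 48 groups in all, and chance alone flags about 1 in 20 of them. In 4 cases a tumor stood apart. The non-responder 33L was high for Col1a1, with a gap of 0.867 of the range, and for Col27a1, with 0.918. The control IgG tumor 20R was high for Col10a1, at 0.759, and the control IgG tumor 14R was low for Col17a1, at 0.821. Tumor 14R also had the lowest sum of skin epidermis markers, 6.73 TPM against 317.1 to 555.1 in the other control IgG tumors. The cause of these values was not tested.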

How the results depend on the processing

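The count of collagen genes called between responders and non-responders, 3 as reported, was 1 with 1 tumor per mouse and 0 with only the groups compared, and it lay between 0 and 9 when each tumor was omitted in turn. Against control IgG tumors, the count of 6 was 3 with the added demand of an absolute log2 fold change above 1, and it lay between 3 and 8 on the omission of each tumor, with 3 without 14R, 20R, 24L or 30R. Over all genes, calls against control IgG tumors fell from 2147 to 1816 without 14R, 1190 without 20R, 1192 without 24L and 1387 without 30R. Against non-responders they fell from 1612 to 520 with 1 tumor per mouse and to 689 with only the groups compared. The cause of these changes in the counts was not tested, apart from the smaller number of tumors in such fits. No collagen gene was called between non-responders and control IgG tumors under any alternative.

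For the 16 collagen genes described tumor by tumor, 1248 refits of 48 log2 fold changes were made. A call could be lost only in the 234 refits of the 9 called values, and 59 of these lost it, while none reversed its sign. Among the refits of values that were not called, 9 gained a call. In 56 refits a value that was not called had the other sign, and 15 values, none above 0.38 in absolute log2 fold change, were concerned. The log2 ratio of mean summed collagen CPM, 0.36 in responders against non-responders and 0.41 against control IgG tumors, moved by less than the spread between tumors under each alternative. The library 33R, with its deficit of long transcripts, limits every comparison with non-responders, and genes under 1 CPM rest on few fragments.

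No paired analysis was possible because the tumor names are not shared between groups.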

Other observations

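Mice 14, 30 and 33 gave both flank tumors, which allows a look at collagen within a mouse, with no replicate of any pair. In mouse 33, whose tumors were both non-responders, the sum of collagen CPM was 6132.4 on the left and 3282.6 on the right, a ratio of 1.87 (2.52 in TPM). Col1a1 was 2.38 times as high on the left in CPM (3.35 times in TPM) and Col3a1 1.76 times (2.39 times in TPM). Col8a2 was at 1.84 CPM on the left and 2.41 on the right, a ratio of 0.765, while in TPM the ratio was 1.06. The right tumor of this mouse, 33R, is the library with low counts of long transcripts, and the part of this in the ratios was not tested. In mouse 30, whose tumors were both responders, the collagen sums were 5556.1 and 5387.7 CPM, a ratio of 1.03 (0.949 in TPM), while Col8a2 was at 6.92 and 2.27 CPM, 3.06 times as high on the left (2.77 times in TPM). In mouse 14, of the control IgG group, the collagen sum was 1.32 times as high on the left in CPM (1.47 times in TPM), and Col8a2 was at 0.398 CPM on the left and 0.726 on the right.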
